A study of Mus musculus with 23 samples.

Results

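Ky and Mylk2, 2 genes known from striated muscle, are described here in cultured mouse astrocytes given T3 (triiodothyronine, the active thyroid hormone), beside Mylk and Mylk3, which encode other myosin light chain kinases. The 4 genes were listed by name and found by matching the Ensembl identifiers of the count files to a GRCm38 annotation. They are 4 of 38293 identifiers, and all 4 were among the 16087 genes with enough counts to be tested. Ky and Mylk2 were picked because they stood far higher with T3 at 6 h, so every comparison that uses the 6 h control or 6 h T3 libraries is given for these 2 genes as a description, with no test.

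All groups held primary astrocytes, glia that support neurons and shape their surroundings, taken from the neocortex of mice at postnatal day 3. The mice had a mixed background in which BALB/c+C57BL/6 was joined with 129/OLa+129/Sv+. Per the labels' protocols, cells grew for 7 days in medium with thyroid hormone-deprived serum, were stated to be more than 95% astrocytes, and stood in 0.1% deprived serum for 24 h before T3 or no T3. The 6 groups were 6 h control, 6 h with 10 nM T3, 6 h with CHX, 6 h with CHX and 10 nM T3, 24 h control, and 24 h with 10 nM T3. The last had 3 libraries and the others 4 each, 23 in all. CHX is taken to be cycloheximide, which blocks translation; it was used at 8 µg/ml and added 30 min before T3. Libraries held 13843040 to 22997873 gene counts, and levels are given in CPM, in which counts are put on one library size. A level of 1 CPM is a small number of reads, so values near it are imprecise. No label says that replicates came from separate cultures, so the spread that a p-value measures may be technical. In bulk RNA, fewer cells of a type and less RNA per cell cannot be told apart.

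Ky encodes kyphoscoliosis peptidase, a protein with a transglutaminase-like domain that sits at the Z-disc, where the contractile units of striated muscle are joined, and binds the actin crosslinker filamin C. Mice that lack it develop a muscle disease with a bent spine. Mylk2 encodes the skeletal muscle form of myosin light chain kinase, a calmodulin-dependent enzyme that phosphorylates the regulatory light chain of myosin. Mylk encodes the smooth muscle and non-muscle forms, and Mylk3 the cardiac form. T3 acts through nuclear receptors that bind DNA, and skeletal and cardiac muscle are among its classical target tissues, whereas these genes are not known as markers of astrocytes.

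Since reads were single and 50 bases long, and kinase genes resemble each other, the closest stretches of Mylk2, Mylk and Mylk3 are shown first, because they bear on how well reads can be assigned. They are coding sequence of GENCODE M21 transcripts on GRCm38, written 5′ to 3′ on the sense strand, and capitals mark bases that differ within a pair. The closest 50-base stretches of Mylk2 and Mylk differ at 9 bases and share no run longer than 15 bases in them or elsewhere in an ungapped comparison of the coding sequences; they lie in the part that encodes the catalytic loop of the kinase. Those of Mylk2 and Mylk3 differ at 8 bases, with a longest shared run of 17 bases. Mylk and Mylk3 are the most alike, with 6 differing bases and a longest run of 19. Mylk2 and Mylk4, a kinase gene with almost no reads here, differ at 8 bases and share a run of 21.
Mylk2 (chr2:152917649-152919180, + strand, across 2 exons): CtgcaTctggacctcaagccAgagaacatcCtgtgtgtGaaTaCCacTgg
Mylk (chr16:34977009-34977058, + strand, 1 exon): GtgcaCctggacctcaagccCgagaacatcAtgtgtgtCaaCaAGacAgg
Mylk2 (chr2:152919416-152920297, + strand, across 2 exons): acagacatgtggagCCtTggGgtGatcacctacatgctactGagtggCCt
Mylk3 (chr8:85328672-85336405, - strand, across 2 exons): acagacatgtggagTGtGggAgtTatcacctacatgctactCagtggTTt
Mylk (the same stretch, against Mylk3): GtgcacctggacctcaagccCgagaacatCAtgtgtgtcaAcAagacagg
Mylk3 (chr8:85342696-85350380, - strand, across 2 exons): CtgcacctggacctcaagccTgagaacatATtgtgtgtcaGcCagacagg
Every 50-base stretch of the longest coding transcript was looked up in the transcripts of all other genes on either strand. None of 5788 stretches of Ky, 2902 of Mylk2 and 3647 of Mylk3 was found in another gene. Of 7775 stretches of Mylk, 333 (4.28%) were also found in the antisense genes E130310I04Rik and Gm21691, whose exons overlap those of Mylk and which have no line in the count files. The kit marks no strand, so reads from those overlaps cannot be told apart from reads of Mylk.

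Ky lies on chromosome 9 from 102505750 to 102546239 on the + strand, with 11 exon blocks and 5879 exon bases (ENSMUSG00000035606). Mylk2 lies on chromosome 2 from 152911352 to 152923068 on the + strand, with 12 blocks and 2951 bases (ENSMUSG00000027470). Mylk lies on chromosome 16 from 34745210 to 35002420 on the + strand, with 38 blocks and 11263 bases (ENSMUSG00000022836), and Mylk3 on chromosome 8 from 85324303 to 85386345 on the - strand, with 15 blocks and 4283 bases (ENSMUSG00000031698). No annotated gene overlaps an exon of Ky, Mylk2 or Mylk3.

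The libraries labelled T3 held known T3 responses: Hr, a corepressor gene and direct T3 target, stood at 10.8 CPM in 6 h control and 205 in 6 h T3, at 15.7 and 113 with CHX, and at 17.6 and 233 at 24 h. Klf9, a transcription factor gene induced by T3, reached 79.6 CPM in 6 h T3, went from 14.3 to 62.3 with CHX and from 20.4 to 57.6 at 24 h. File names carry a sequencing lane: lane 5 held every library of 6 h control and 6 h T3 and 3 of the 4 with CHX alone, lane 7 held 1 of 24 h T3, and lane 6 held the rest. T3 at 6 h is therefore compared within 1 lane. CHX alone is compared largely within lane 5, and T3 at 24 h largely within lane 6. T3 with CHX is compared largely across lanes, and CHX in the presence of T3 and time wholly across lanes.

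Ky reached the highest level of the members, in 24 h T3, and stood higher with T3 in each of the 3 settings. Mylk2 had more reads than Ky in 6 h control, 6 h CHX and 6 h CHX with T3 (means of 38.25, 76.75 and 167.5 against 23.25, 21 and 112.5). At 6 h, Ky stood at 1.24, 2.03, 1.28 and 1.29 CPM in the 4 control libraries and at 12.1, 10.6, 10.6 and 11.3 in the 4 T3 libraries. The mean of Ky was 1.46 ± 0.380 in control and 11.2 ± 0.701 with T3 (SD, n = 4 each), and the groups did not overlap. The fitted log2 fold change was 2.92 ± 0.18 (SE), rank 5 of all 16087 genes, which is the choice of the gene and not a finding. At 6 h, 3.77% of all genes tested were called, and 11.5% had T3 and control libraries that did not overlap; Ky and Mylk2 were chosen on this contrast, so nothing is read from it for them.

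With CHX, Ky stood at 1.14, 1.78, 0.844 and 0.701 CPM without T3 and at 6.33, 5.91, 6.76 and 6.45 CPM with T3. Every library with T3 exceeded every library without it. Ky rose with T3 in the presence of CHX by a log2 fold change of 2.50 ± 0.20 (edgeR quasi-likelihood test, Benjamini-Hochberg adjusted p = 6.98e-09), the second largest fitted rise of all genes, from 1.12 ± 0.477 to 6.36 ± 0.349 CPM (SD, n = 4 each). In this comparison 1.29% of genes were called and 12.3% did not overlap, and Ky and Mylk2 were the 2 of 4 members called. Within lane 6 alone the fitted change of Ky was 3.17, but there 1 library with CHX alone (0.701 CPM) stands against 4 with CHX and T3, so that value has no replicate check on one side.

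At 24 h, Ky stood at 6.54, 5.73, 7.55 and 4.45 CPM in control libraries and at 23.6, 26.1 and 26.5 CPM with T3, its highest level in the study. Again no control library reached the T3 range. Ky rose by a log2 fold change of 2.07 ± 0.15 (edgeR adjusted p = 3.94e-10, rank 17 of all genes), from 6.07 ± 1.31 (SD, n = 4) to 25.4 ± 1.56 CPM (SD, n = 3). Of all genes, 7.09% were called at 24 h and 15.1% did not overlap, and Ky was the 1 member of 4 called. Without the T3 library on lane 7 the change was 2.03 ± 0.17 (edgeR adjusted p = 8.27e-09).

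**Figure D1:**
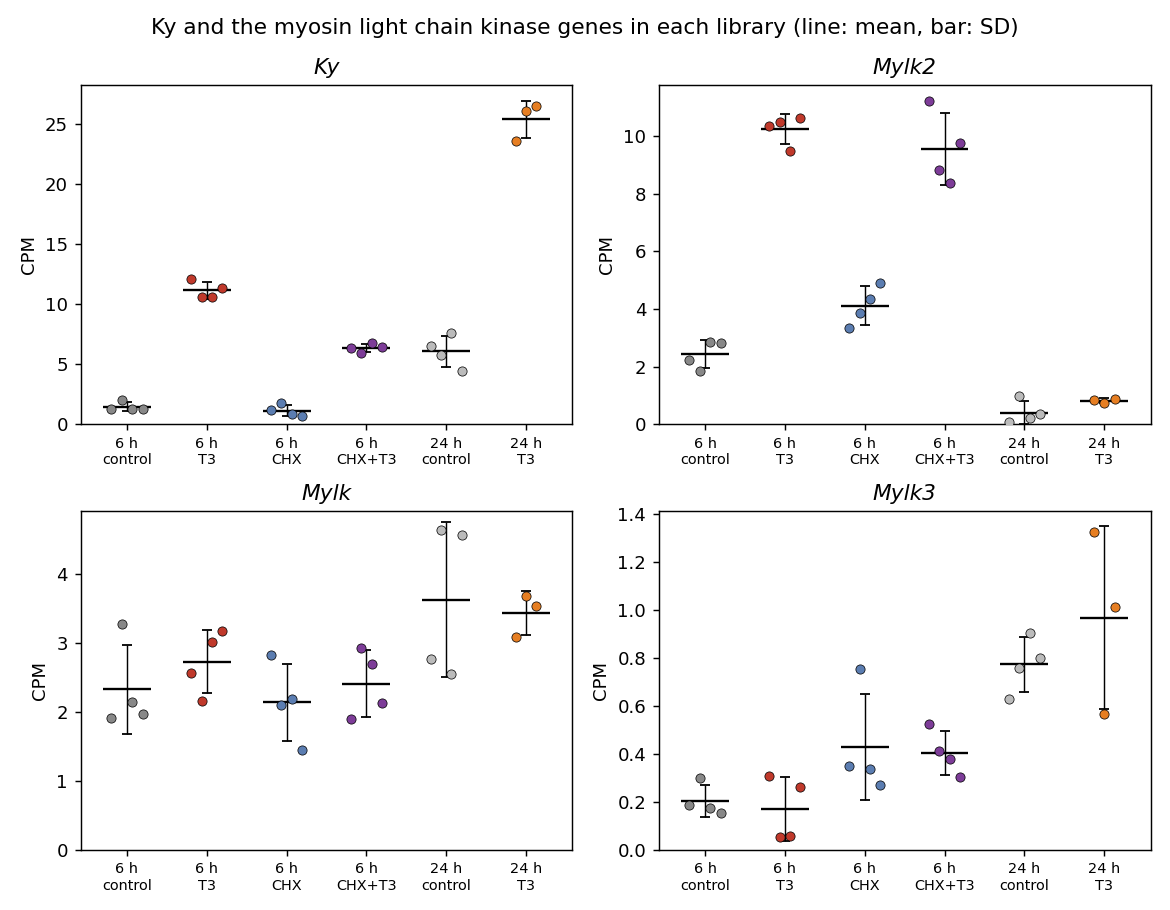
CPM (vertical axis, linear, a separate scale for each gene) of Ky, Mylk2, Mylk and Mylk3 in each library of the 6 groups (horizontal axis), with points for libraries, a long line for the mean and bars for 1 SD. Ky is highest in 24 h T3 (mean 25.4 CPM) and Mylk2 in 6 h T3 (mean 10.3 CPM), while Mylk and Mylk3 show overlapping points with and without T3 in each setting.

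Mylk2 stood at 2.23, 1.85, 2.85 and 2.80 CPM in 6 h control and at 10.4, 10.5, 9.51 and 10.6 CPM in 6 h T3. The groups did not overlap, with means of 2.43 ± 0.481 and 10.3 ± 0.511 (SD, n = 4 each) and a log2 fold change of 2.08 ± 0.20, rank 10 of all genes; this, too, is the choice of the gene. With CHX alone it stood at 3.32, 3.88, 4.33 and 4.91 CPM, and with CHX and T3 at 11.2, 8.84, 8.38 and 9.76. All libraries with T3 lay above all without, and Mylk2 rose by 1.22 ± 0.19 (log2, edgeR adjusted p = 3.39e-04, rank 16). The call was lost with lane as a covariate (0.96 ± 0.30, edgeR adjusted p = 0.075). That fit sets the 4 libraries with T3 against the 1 library with CHX alone on lane 6, as does a fit on lane 6 alone (0.96, edgeR adjusted p = 0.104), so both are 1 comparison, in which the lone library is assumed to vary like the other groups.

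At 24 h Mylk2 was close to the limit of detection, in controls with 1, 18, 4 and 6 reads (0.0629, 0.973, 0.213 and 0.342 CPM) and with T3 with 13, 14 and 21 reads (0.819, 0.718 and 0.884 CPM). The groups overlapped, because the second control library held more than every T3 library. The log2 fold change was 0.98 ± 0.42 with a 95% interval from 0.12 to 1.83 and was not called (edgeR adjusted p = 0.172). Without that control library the change was 1.91 ± 0.40 (edgeR adjusted p = 0.00369), so 1 library decides the call.

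The levels of Ky ran, from highest to lowest, through 24 h T3, 6 h T3, 6 h CHX with T3 (6.36 CPM), 24 h control (6.07), 6 h control (1.46) and 6 h CHX (1.12). 6 h CHX with T3 and 24 h control overlapped, as did the last pair; the other neighbours in the order did not. Mylk2 followed another order, with 6 h T3 (10.3 CPM) and 6 h CHX with T3 (9.55) overlapping at the top, then 6 h CHX (4.11), 6 h control (2.43), and 24 h T3 (0.807) and 24 h control (0.398) overlapping at the bottom. Both genes were higher with T3 in each setting by their means, yet they moved in opposite directions with time.

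Between 6 h and 24 h, Ky was higher by a log2 difference of 2.04 ± 0.20 without T3 and 1.19 ± 0.14 with T3. Mylk2 was lower, by -2.55 ± 0.33 without T3 and -3.65 ± 0.26 with T3, and at 24 h no library reached the lowest of the 6 h groups. These values are descriptions; 56.6% of all genes were called between the times without T3 and 57.6% with T3, and 51.1% did not overlap in each. With lane as a covariate, which rests on the 1 library with CHX alone on lane 6, Ky differed by 2.88 ± 0.47 and 1.99 ± 0.46. In that fit Mylk2 differed by -2.90 ± 0.46 without T3 and -4.09 ± 0.46 with T3. The part of lane in these differences was otherwise not tested.

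With CHX alone, 3 of the 4 libraries held less Ky than every 6 h control library and 1 lay within the control range, with a log2 difference of -0.39 ± 0.25. With T3, Ky was lower with CHX than without in every library, by -0.81 ± 0.15, a difference that became 0.024 ± 0.41 with lane as a covariate. Mylk2 stood higher with CHX alone in all 4 libraries, by 0.76 ± 0.22, and overlapped with T3, at -0.11 ± 0.17. CHX moved most genes: 67.5% were called for CHX alone and 67.3% for CHX in the presence of T3, and 62.7% and 63.6% did not overlap.

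The T3 effect itself, taken as a log2 fold change, was smaller with CHX than without by -0.42 ± 0.29 for Ky and by -0.87 ± 0.28 for Mylk2. It was smaller at 24 h than at 6 h by -0.86 ± 0.25 for Ky and by -1.10 ± 0.49 for Mylk2. No test is given, since the 6 h T3 effect chose both genes and a value chosen for being large enters each difference. With lane as a covariate the first difference for Ky was 0.25 ± 0.47, and without the second 24 h control library the last for Mylk2 was -0.17 ± 0.59. The plot of T3 effects shows both genes to the right of 0 in all settings.

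**Figure D2:**
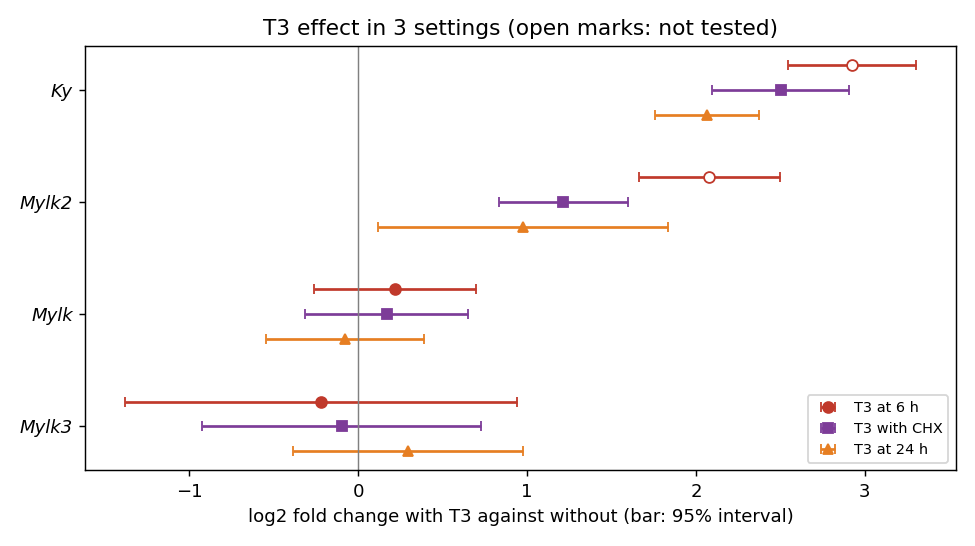
Log2 fold change with T3 against without (horizontal axis) for Ky, Mylk2, Mylk and Mylk3 at 6 h, with CHX at 6 h, and at 24 h; marks are fitted values, bars 95% intervals, and open marks were not tested. Ky lies between 2.07 and 2.92 and Mylk2 between 0.98 and 2.08, while every interval of Mylk and Mylk3 includes 0.

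Mylk, the smooth muscle and non-muscle kinase gene, did not respond detectably to T3. At 6 h its control libraries held 1.92, 3.28, 2.15 and 1.97 CPM and its T3 libraries 2.56, 2.17, 3.01 and 3.18, which overlap. The log2 fold changes were 0.22 ± 0.23 at 6 h (95% interval -0.26 to 0.70, edgeR adjusted p = 0.705), 0.17 ± 0.23 with CHX (-0.32 to 0.65, edgeR adjusted p = 0.781) and -0.08 ± 0.23 at 24 h (-0.54 to 0.39, edgeR adjusted p = 0.887). These intervals exclude a 2-fold change in either direction, a log2 value of 1, but not smaller ones. With lane as a covariate that no longer holds for T3 with CHX, where the change was 0.73 ± 0.40 (edgeR adjusted p = 0.417). CHX gave -0.12 ± 0.24 alone and -0.17 ± 0.23 with T3, and 0.023 and 0.53 with lane as a covariate, none of them called.

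Mylk was higher at 24 h than at 6 h without T3, at 3.63 ± 1.13 against 2.33 ± 0.642 CPM (SD, n = 4 each), by a log2 difference of 0.63 ± 0.23 (edgeR adjusted p = 0.0201), though the groups overlapped. That call was lost without control replicate 2 or 4 of 24 h, or replicate 1, 3 or 4 of 6 h, with values of 0.49 to 0.59 and edgeR adjusted p from 0.0506 to 0.089. With T3 the difference was 0.34 ± 0.23 (edgeR adjusted p = 0.218). With lane as a covariate these values became 1.34 ± 0.46 (edgeR adjusted p = 0.0335) and 1.03 ± 0.48 (edgeR adjusted p = 0.105).

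Mylk3, the cardiac kinase gene, was near the limit of detection at 6 h, with 2 to 5 reads per control library and 1 to 6 per T3 library (means of 0.202 and 0.170 CPM). Its T3 changes of -0.22 ± 0.56 at 6 h, -0.10 ± 0.40 with CHX and 0.29 ± 0.33 at 24 h were not called (edgeR adjusted p = 0.888, 0.936 and 0.666). With lane as a covariate the change with CHX was 0.55 ± 0.72, also not called. The interval at 6 h, from -1.38 to 0.94, leaves wide room at this depth. At 24 h Mylk3 stood at 0.629, 0.757, 0.904 and 0.799 CPM in controls and 1.32, 0.564 and 1.01 with T3, and all of these lay above all 6 h control and 6 h T3 libraries. It was higher at 24 h by 1.88 ± 0.43 without T3 (edgeR adjusted p = 5.99e-04) and by 2.40 ± 0.43 with T3 (edgeR adjusted p = 3.84e-05), both called under all 30 alternatives that gave a value, lane as a covariate included.

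CHX alone gave Mylk3 a difference of 1.03 ± 0.47 that was not called (edgeR adjusted p = 0.0565), and CHX in the presence of T3 1.15 ± 0.48 that was (edgeR adjusted p = 0.0373). The first was called under 5 alternatives, and the call of the second was lost under 9. The T3 effects of Mylk and Mylk3 did not pass the test of a difference between settings (edgeR adjusted p from 0.675 to 0.978), where 1.22% of genes were called for CHX and 0.839% for time.

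Per exon length, on the scale of CPM per kb, the mix of kinase messages changed between the groups. Another kinase gene, Mylk4, had 10 reads in all 23 libraries, at most 2 in any, and was not tested. Of the summed CPM per kb of the 4 kinase genes, Mylk2 made up 75.6% ± 8.90 (SD, n = 4) in 6 h control, 92.5% ± 1.42 in 6 h T3, 82.3% ± 5.60 with CHX and 91.2% ± 1.91 with CHX and T3. At 24 h it made up 5.05% to 35.9% in the control libraries (mean 17.8%) and 33.7% ± 1.53 with T3 (n = 3), where Mylk held 51.1% and 38.1% and Mylk3 30.4% and 27.2%. At 6 h Mylk2 was thus the most abundant of the 4 messages in every library, and in 24 h control Mylk was by the mean. The shares are a description, since they hold the values that chose Mylk2.

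**Figure D3:**
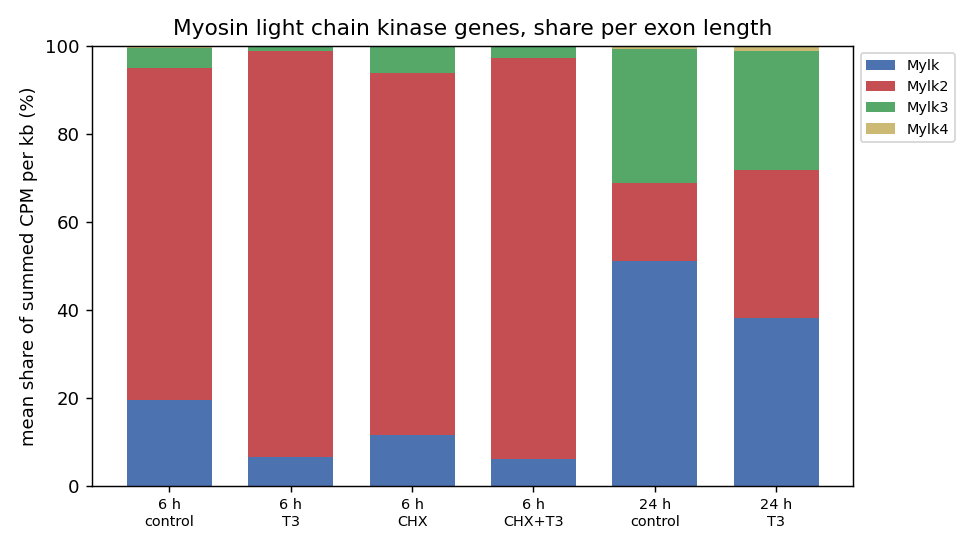
Mean share (vertical axis, percent) of each myosin light chain kinase gene in the summed CPM per kb of exon in the 6 groups (horizontal axis), as stacked bars. Mylk2 fills most of each 6 h bar, from 75.6% to 92.5%, and Mylk and Mylk3 most of the 24 h bars.

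With the longest protein-coding transcript in place of all annotated exons, an alternative chosen after seeing the data, the Mylk2 shares were 69.3%, 89.8%, 77.7%, 88.4%, 14.2% and 27.7% in the same group order. Summed over the 4 genes, the level was 1.08 ± 0.116 CPM per kb in 6 h control and 3.76 ± 0.186 in 6 h T3, and 0.642 ± 0.222 and 0.813 ± 0.0894 at 24 h. All members were low-level messages: among 13918 protein-coding genes tested, Ky exceeded 8.7% in CPM per kb in 6 h control, 26.8% in 6 h T3 and 41.6% in 24 h T3, and Mylk2 exceeded 18.4%, 37.1% and 7.1%.

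The other genes of myosin light chain phosphorylation (calmodulins, myosin light chains, myosin phosphatase subunits and related regulators) had no call with T3. Of 28 tested besides the members, 0 were called at 6 h, 0 with CHX and 0 at 24 h by edgeR, and DESeq2 called 0 in each. The shares of all genes called by edgeR were 3.77%, 1.29% and 7.09%. At an unadjusted p under 0.05, 1, 0 and 2 of the 28 passed, beside 16.7%, 12.6% and 20.6% of all genes tested. Their median log2 changes were -0.04, 0.08 and 0.01, beside medians of 0.00, -0.01 and 0.00 over all genes. The summed level of that list ran from 4424 to 4674 CPM in 6 h control and from 4390 to 4485 in 6 h T3.

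Of the genes of the Z-disc and the binding partners of Ky, 14 were tested besides Ky, and 0 were called at 6 h, 0 with CHX and 1 at 24 h. By DESeq2 the counts were 0, 0 and 2, and at an unadjusted p under 0.05 they were 1, 1 and 3. Over all genes tested, 3.77%, 1.29% and 7.09% were called by edgeR, and 16.7%, 12.6% and 20.6% had an unadjusted p under 0.05. The 1 call among 14 genes at 24 h is near the 7.09% of all genes. The called gene was Flnc, which encodes filamin C, the known partner of Ky: it fell from 296 to 196 CPM at 24 h, by a log2 change of -0.60 ± 0.09 (edgeR adjusted p = 1.41e-04), and was called under every alternative. Ky rose in the same libraries, and a link between Ky and Flnc was not tested. Without replicate 1 or 3 of 24 h T3, 2 genes of the list were called. The median changes were -0.10, 0.10 and -0.07 at 6 h, with CHX and at 24 h. Another 11 genes had too few reads to be tested, among them Igfn1, another known partner of Ky, with at most 4 reads in a library.

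Muscle genes known to respond to thyroid hormone were mostly too low to test: 5 of 13 passed. At 6 h, with CHX and at 24 h, 5, 3 and 4 of the 5 had a positive log2 change. At an unadjusted p under 0.05 in edgeR, 3, 2 and 3 passed, beside 16.7%, 12.6% and 20.6% of all genes. In each setting edgeR called 1 of the 5, beside 3.77%, 1.29% and 7.09% of all genes. The called gene, Ppargc1a, a coactivator gene of mitochondrial biogenesis, rose in each setting. Its log2 changes were 0.42 ± 0.11 at 6 h, 0.44 ± 0.11 with CHX and 0.57 ± 0.12 at 24 h (edgeR adjusted p = 0.0336, 0.0361 and 0.00281). The first was lost without replicate 1, 3 or 4 of 6 h control or of 6 h T3, with an adjusted p up to 0.112, and the second without replicate 1, 2 or 4 of 6 h CHX or 1, 2 or 3 of 6 h CHX with T3, up to 0.189. The third was lost only where just the 24 h groups were fitted (edgeR adjusted p = 0.0838). Of the transglutaminase fold genes, which share a fold with Ky, 4 were tested; Tgm2, the tissue transglutaminase gene, was called at 24 h, higher by 0.34 ± 0.09 (edgeR adjusted p = 0.0199), and lost without control replicate 1 or 2 or T3 replicate 1 or 2 of 24 h, and where just the 24 h groups were fitted (edgeR adjusted p = 0.0866). By edgeR and by DESeq2, 0 were called at 6 h or with CHX, where 1 and 1 had an unadjusted p under 0.05.

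Markers of skeletal and cardiac muscle were mostly too low to test, and none was called with T3. Of 34 markers, 13 had enough reads to be tested and 0 were called with T3 at 6 h, with CHX or at 24 h by edgeR or DESeq2. The shares of all genes called by edgeR were 3.77%, 1.29% and 7.09%, and 0 calls among 13 genes are near them. At an unadjusted p under 0.05 in edgeR, 1, 0 and 3 of the 13 passed, beside 16.7%, 12.6% and 20.6% of all genes. Without control replicate 3 or T3 replicate 2 of 24 h, or replicate 4 of 6 h CHX, 1 was called at 24 h. Defining genes of muscle were at or near 0: over all 23 libraries Ckm (muscle creatine kinase) had 3 reads, Myh4 (a fast myosin heavy chain) 2, Tnnc2 (fast troponin C) 2, Myf5 1, Myf6 4, Myod1 18 and Myog 14, the last 4 being the myogenic regulators. The summed marker level was lower with T3 at 6 h, from 105 to 119 CPM against 126 to 132 in control, and overlapped with CHX (92.3 to 102 against 82.5 to 99.2) and at 24 h (113 to 134 against 95.3 to 116).

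Smooth muscle and mural cell markers were abundant as a sum, at 3189 to 3600 CPM in 6 h control and 2789 to 3333 in 6 h T3. The sums were 2334 to 2740 and 2426 to 2781 with CHX, and 2637 to 3382 and 3084 to 4150 at 24 h. Of 15 listed, Kcnj8, Abcc9, Vtn and Higd1b had too few reads to be tested, at 44, 100, 115 and 4 over all 23 libraries. Of the 11 tested, 0 were called at 6 h by edgeR or DESeq2, and edgeR called 1 with CHX and 2 at 24 h. The shares of all genes called by edgeR were 3.77%, 1.29% and 7.09% at 6 h, with CHX and at 24 h. At an unadjusted p under 0.05 in edgeR, 4, 1 and 7 of the 11 passed, beside 16.7%, 12.6% and 20.6% of all genes. At 24 h Acta2 (smooth muscle actin) rose by 0.43 ± 0.10 (edgeR adjusted p = 0.00970) and Notch3, a receptor gene of mural cells, fell by 0.51 ± 0.11 (edgeR adjusted p = 0.00557), and with CHX Smtn (smoothelin) rose by 0.49 ± 0.07 (edgeR adjusted p = 1.15e-04). Acta2 was not called without replicate 1 of 24 h T3, and neither Acta2 nor Notch3 where just the 24 h groups were fitted; without replicate 3 of that group 4 markers were called. Their part in the changes of Ky and Mylk2 was not tested.

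Astrocyte markers were the highest of the marker lists, with summed levels of 10929 to 11750 CPM in 6 h control and 12361 to 12665 in 6 h T3, which do not overlap. With CHX they ran from 8183 to 9776 and with CHX and T3 from 7795 to 8341, and at 24 h from 10096 to 11976 and 9998 to 11077. Of 10 tested, edgeR called 1 at 6 h, 0 with CHX and 3 at 24 h. The shares of all genes called were 3.77%, 1.29% and 7.09%. At an unadjusted p under 0.05 in edgeR, 4, 5 and 4 of the 10 passed, beside 16.7%, 12.6% and 20.6% of all genes. Glul, the glutamine synthetase gene, rose at 6 h and at 24 h by 0.16 and 0.17 (edgeR adjusted p = 0.0292 and 0.0184), while Aldoc, an aldolase gene, and Slc1a3, a glutamate transporter gene, fell at 24 h by 0.32 and 0.17 (edgeR adjusted p = 0.0248 and 0.0307). All 4 calls depend on the setting: Glul was lost at 6 h without any 1 of 6 libraries (adjusted p up to 0.117 over all alternatives) and at 24 h without control replicate 1 or T3 replicate 1 (up to 0.275). At 24 h Aldoc was lost without control replicate 2 or 4 or T3 replicate 2 or 3 (up to 0.145), and Slc1a3 without control replicate 2 or 4 or T3 replicate 1 (up to 0.294). Microglia markers summed to 34.9 to 42.0 CPM in 6 h control and 45.1 to 51.8 in 6 h T3, to 24.0 to 36.8 and 20.7 to 23.4 with CHX, and to 33.3 to 76.9 and 41.1 to 46.0 at 24 h; 0 of 8 were called in any T3 comparison by edgeR or DESeq2, with 2, 1 and 0 at an unadjusted p under 0.05 at 6 h, with CHX and at 24 h.

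Neuron markers had 1 of 7 called at 6 h (Elavl4, 0.63 ± 0.13, edgeR adjusted p = 0.00643), and summed to 480 to 519 CPM in control and 494 to 552 with T3. Oligodendrocyte lineage markers had 1 of 7 called lower at 6 h (Olig1, -0.27) and 1 at 24 h (Olig2, -0.36), and endothelial and meningeal markers 1 of 6 at 24 h (Dcn, -2.25). The shares of all genes called by edgeR were 3.77% at 6 h and 7.09% at 24 h. The calls of Olig1 and Dcn were lost without any 1 of 13 and of 16 libraries, and that of Olig2 where just the 24 h groups were fitted. The part of these cells in the results for Ky and Mylk2 was not tested.

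Genes beside the members on the chromosome were compared to see whether a change was shared locally. Of the 5 protein-coding genes on each side of Ky, 9 were tested and 1 was called in each T3 comparison: Ephb1, an ephrin receptor gene on the - strand. The edge of Ephb1 nearer to Ky, where that gene starts, lies 151 kb before Ky. Over all genes tested, 3.77%, 1.29% and 7.09% were called at 6 h, with CHX and at 24 h. At an unadjusted p under 0.05 in edgeR, 1, 2 and 5 of the 9 passed, beside 16.7%, 12.6% and 20.6% of all genes. Ephb1 rose by 0.34 ± 0.06 at 6 h, 0.41 ± 0.07 with CHX and 0.29 ± 0.07 at 24 h (edgeR adjusted p = 0.00205, 6.89e-04 and 0.00617), far less than Ky. The call at 24 h was lost where just the 24 h groups were fitted (edgeR adjusted p = 0.088), and the others were kept under every alternative. Cep63, a centrosome gene 38.3 kb beyond Ky, had changes of -0.03, 0.01 and -0.01 that were not called.

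Of the 9 tested neighbours of Mylk2, 0 were called by edgeR in each of the 3 T3 comparisons, with 1, 1 and 3 at an unadjusted p under 0.05 at 6 h, with CHX and at 24 h, and DESeq2 called 1, 0 and 0. Tpx2, a spindle gene that ends 16.0 kb before it, had changes of -0.11, 0.24 and -0.22 (edgeR adjusted p = 0.541, 0.172 and 0.144). Foxs1, a forkhead gene 8.83 kb beyond it, was at 0.514 CPM in 6 h control and 1.08 in 6 h T3. Its change of 1.08 ± 0.34 was not called by edgeR (edgeR adjusted p = 0.0792). Foxs1 was the neighbour called by DESeq2 (1.08, DESeq2 adjusted p = 0.023). It was also called without replicate 1 of 24 h control (edgeR adjusted p = 0.0278). With CHX it stood at 9.45 and 9.44 CPM, with no T3 difference. Beside Mylk, Umps was called higher at 6 h and with CHX (0.34 and 0.45), and Adcy5 higher and Sema5b lower at 24 h (0.37 and -0.30); of these, the Adcy5 and Sema5b calls were lost without any 1 of 18 and of 16 libraries. The nearest genes to Mylk, Ccdc14 and Hacd2, both 20.0 kb away, had T3 changes of -0.14 to 0.19 and -0.10 to 0.08 that were not called. Beside Mylk3, 0 of 9 were called by edgeR or DESeq2 in each comparison, with 1, 1 and 2 at an unadjusted p under 0.05 in edgeR; the nearest, Orc6 and 4921524J17Rik, had changes of -0.07 to 0.02 and -0.10 to -0.02.

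**Figure D4:**
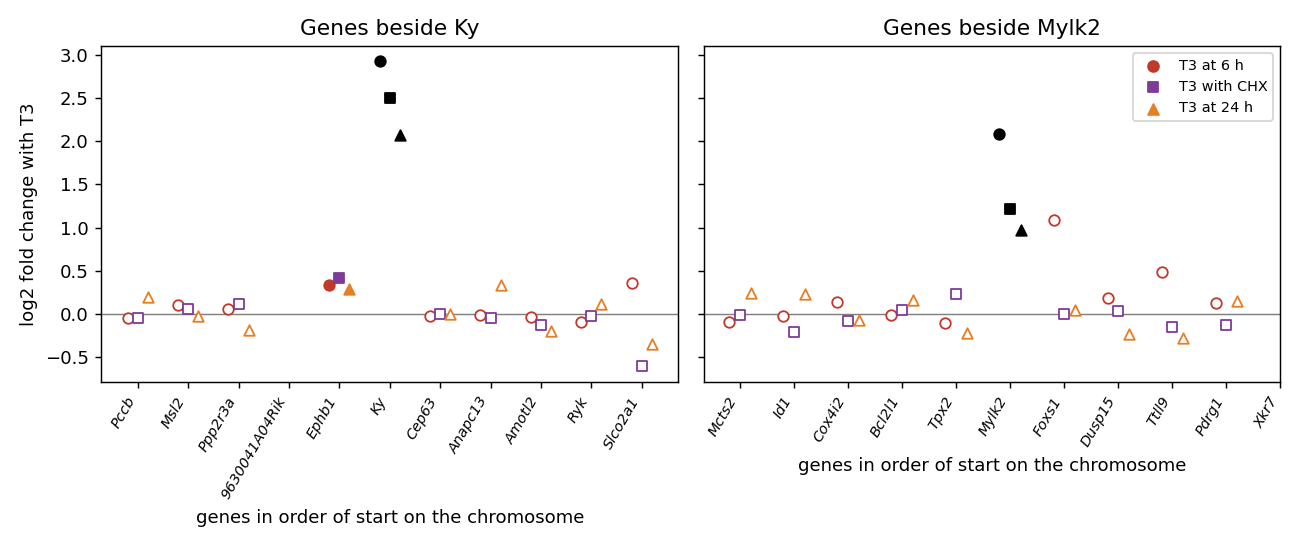
Log2 fold change with T3 (vertical axis) of Ky and Mylk2 (black marks) and of the 5 protein-coding genes on each side of them in order of start on the chromosome (horizontal axis, not to scale), for T3 at 6 h, with CHX and at 24 h. Filled coloured marks are called by edgeR and open ones are not, and a gene without marks was not tested. Ephb1 is the 1 neighbour called by edgeR, at 0.29 to 0.41 against 2.07 to 2.92 for Ky.

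The pattern of each gene over the 23 libraries was compared with 12864 protein-coding genes by the Pearson correlation of log2 CPM, as a description in which all genes share libraries, treatment groups and lanes. The genes most like Ky were Stat5a (r = 0.937), Cpne2 (0.913), Nudt18 (0.899), Kcnc1 (0.898) and Spop (0.894). Stat5a, a transcription factor gene, stood at 5.22 and 14.0 CPM in 6 h control and T3, at 5.03 and 11.1 with CHX and at 7.00 and 21.6 at 24 h. Those most like Mylk2 were Hk2 (r = 0.942), Uck2 (0.932), Cacng5 (0.929), Elovl6 (0.926) and Tbc1d10a (0.923). Ky and Mylk2 themselves had r = -0.095 over the same libraries: both are higher with T3, but Ky is higher and Mylk2 lower at 24 h than at 6 h.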

How the data were processed

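RNA from 23 libraries was sequenced as single reads of 50 bases from a kit that does not mark strand. The deposited files hold raw counts of reads per Ensembl gene, used as deposited. HTSeq and edgeR, TopHat with Bowtie, FastQC and bcl2fastq, and the build GRCm38 are named in the submitters' processing notes without versions; the sources used here do not state how reads were counted or with which gene models. The 5 last lines of a file, below its 38293 genes, name no gene and were left out of library sizes; alignments that were not unique made up 30.7 to 42.3% of all lines' counts and were not counted to genes. Symbols, coordinates and transcripts came from GENCODE M21 on GRCm38, in which 36429 identifiers and 163 of 164 list symbols were found.

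Groups came from the titles. Tests used edgeR 4.0.16 in R 4.3.3 with filterByExpr (minimum count 10), TMM factors and a quasi-likelihood F test with 1 mean per group over all 23 libraries (17 residual degrees of freedom), adjusted by Benjamini-Hochberg over 16087 genes; a gene was called at an adjusted p under 0.05. The SE is the size of the log2 change divided by the square root of F. The script was tested on simulated data. CPM uses TMM-scaled library sizes, and correlations used log2(CPM + 0.5). No 2 replicates were alike within counting noise (chi-square per degree of freedom of at least 1.69). Replicate 1 of 24 h T3 stood furthest off, at 28.5 and 35.8 against replicates 2 and 3, which stood at 2.62 against each other. The highest value in another group was 15.6, between replicates 3 and 4 of 6 h control.

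The members, the gene lists and the tests were chosen with earlier results of these data known. The text names the members and Mylk4; from each list the called genes with the smallest adjusted p, up to 4 per T3 comparison; the called and the nearest neighbours; the 5 genes most like Ky and Mylk2 by correlation; genes overlapping an exon; and Hr and Klf9. Untested genes named by their read counts, and Stat5a as the gene with levels given, were chosen after their values were seen. Alternatives were DESeq2 1.42.0, RLE factors, no filter, a minimum count of 30, only the groups compared, lane as a covariate, 2 kinds of replicate block and leaving out each library; lane 6 alone for T3 with CHX and the transcript length were added after seeing the data.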

Additional observations from a re-analysis of the deposited data

Results flagged for a closer look

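Among 20 groups of 4 libraries (5 groups for each of the 4 genes), 2 held a library far from the others by Dixon's criterion, where chance flags about 1 in 20. In 6 h control, Ky stood at 2.03 CPM (34 reads) in replicate 2 against 1.29 in the nearest library, a gap of 0.936 of the range. The T3 libraries at 6 h, from 10.6 to 12.1 CPM, lie far above that library as well. In 6 h CHX, Mylk3 stood at 0.754 CPM (14 reads) in replicate 2 against 0.347 in the nearest library, a gap of 0.840 of the range. The cause was not tested in either case.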

How the results depend on the processing

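Ky kept its call under all 31 alternatives at 24 h (log2 changes of 1.94 to 2.19) and all 32 with CHX (2.34 to 3.17, the highest with lane, where 1 library holds CHX alone), and Mylk and Mylk3 were called for T3 under none. Levels near 1 CPM rest on few reads, which limits Mylk3 at 6 h and Mylk2 at 24 h. The same holds for Ky without T3 at 6 h, with 17 to 34 reads per control library and 13 to 33 with CHX alone. Mylk2 with CHX was 0.96 (edgeR adjusted p = 0.075) with lane as a covariate and 0.96 (0.104) on lane 6 alone. With lane as a covariate, Ky for CHX with T3 became 0.024 and its difference of T3 effects with and without CHX 0.25. The cause was not tested. Mylk3 for CHX with T3 was 1.16 with DESeq2, 1.16 with no filter, 1.96 with lane and 1.12 with only the groups compared, none of them called; for CHX alone it was called at 1.19 with lane.

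Leaving out single libraries gave Mylk2 at 24 h 0.66 to 1.91, Mylk with time in controls 0.49 to 0.85, and Mylk3 0.62 to 1.28 for CHX alone and 0.87 to 1.58 for CHX with T3. Counts of genes called then ran from 349 to 994 for T3 at 6 h (606 as reported), 136 to 415 with CHX (208), and 30 to 489 (196) and 73 to 350 (135) for the differences of T3 effects by CHX and by time. The counts of 994, 415 and 489 came without replicate 1 of 24 h T3, a library that is in none of those comparisons. Over all single libraries left out, the counts for T3 at 24 h were 1 to 2 Z-disc genes, 0 to 1 muscle markers and 1 to 4 smooth muscle markers.

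For T3 with CHX, 343 genes were called with DESeq2, 660 with lane, 404 with only the groups compared and 495 on lane 6 alone, and 1 Z-disc gene with lane and on lane 6 alone. For T3 at 24 h, only the groups compared gave 394 genes (1140 as reported) and 0 smooth muscle markers; DESeq2 gave 2 Z-disc genes, and lane gave 2, with 1 muscle marker and 4 smooth muscle markers. At 6 h, only the groups compared gave 1 muscle marker. Between times, lane gave 4414 genes without T3 (9105) and 5409 with T3 (9259). The difference of T3 effects by CHX had 514 genes with DESeq2, 295 with no filter, 966 with lane and 499 with only the groups compared, and that by time 365, 521 and 57 with DESeq2, lane and only the groups compared. Without scaling factors the median of all genes between times in controls was 0.11, and Ky, Mylk2, Mylk and Mylk3 stood at 2.15, -2.44, 0.74 and 1.99.

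Deviations of same-numbered libraries correlated weakly, from -0.088 to 0.111 over the T3 comparisons. With CHX all were positive (0.012 to 0.111), and replicates 2, 3 and 4 correlated best with their same-numbered library. With the replicate number as a block, Ky changed by 2.02 at 24 h and 2.51 with CHX and Mylk2 by 1.01 and 1.22, with no call of a member changed; the difference by CHX had 381 genes. With the letter of the description as a replicate block, it had 368 and that by time 213, with 1 muscle marker called at 24 h.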
